A study of Sus scrofa with 21 samples.

Results

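Genes for the adhesion and migration of leukocytes were compared in whole blood of SLAdd minipigs (DD) and Large White pigs (LW). The 91 genes were chosen by the symbol that the array gives them. No measured value enters that rule, but it was set with earlier results of these data known. They are the integrin subunits other than ITGA2B and ITGB3, the selectins and SELPLG, the immunoglobulin adhesion molecules, CD44, CD47 and CD99, the proteins that join integrins to actin, the exchange factors and activating proteins of small GTPases, and the myosin light chains with their kinases. They were read by 209 of the 60305 probes of the array. After the dimmest 25% of all probes had been removed, 80 of the 91 genes kept 165 probes and were tested among 35578 features, where a feature is 1 gene symbol or 1 unnamed transcript.

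Total RNA from blood of 10 DD and 11 LW pigs was labelled with Cy3 and hybridised to a one-colour Agilent array of 60-base probes, with 1 array per pig. All pigs were 60 days old and had free access to a standard diet. The DD line is inbred and homozygous at the SLA locus, the major histocompatibility complex of pigs, and its 10 animals came in sibling pairs from 5 litters, while LW is a commercial breed that served as control, with 11 animals from 6 litters. All that sets an inbred minipig line apart from a commercial breed, the SLA genotype included, differs at once between the groups and cannot be told apart.

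Leukocytes leave the blood in steps. Selectins let a cell roll along the vessel wall, integrins that have been switched to an active shape then hold it by binding ICAM-1, ICAM-2, VCAM1 or MADCAM1, and the cell crawls and passes between endothelial cells with the help of PECAM1, CD99 and the junctional adhesion molecules. Inside the cell, talin and kindlins activate integrins, vinculin and alpha-actinin couple them to actin, and small GTPases and myosin light chains drive the change of shape. The same proteins serve platelets during spreading and clot retraction.

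DD and LW pigs differed in both directions across these genes. Past an adjusted p of 0.05 in limma, 22 of the 80 genes tested (27.5%) differed, of which 9 were higher and 13 were lower in DD pigs. Among all features, 21% passed the same threshold, 11.4% higher and 9.57% lower in DD pigs. Among the 7801 features that carry a RefSeq symbol it was 22%, with 10.4% higher and 11.7% lower. The share among the adhesion and migration genes was therefore near that of the array as a whole, and the count is no result about these genes as a set. The median log2 fold change (FC, DD minus LW, where 1 is a doubling) was -0.12 over the 80 genes, with 46 below 0 and 34 above, against -0.04 over all features. None of the 80 genes separated the breeds without overlap, as 0.382% of all features did. The SD between animals of a breed had a median of 0.40 on the log2 scale over the 80 genes. In 21 of the 80 genes the log2 FC was larger than the gene's own SD. Among them were 20 of the 22 genes past the threshold, an overlap that follows from the test, which weighs a difference against the SD.

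**Figure D1:**
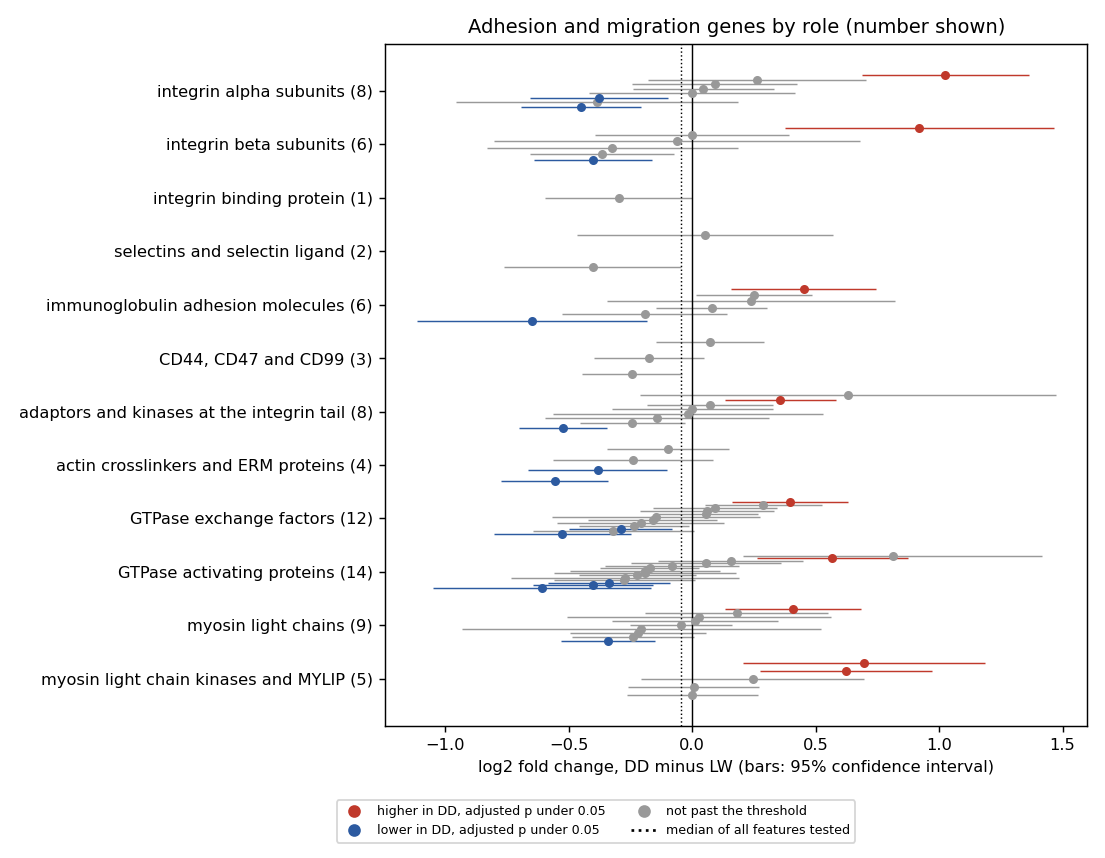
Log2 fold change (DD minus LW) of the genes tested and reported, in rows by role, with the 95% confidence interval. Red points are the 9 genes higher in DD pigs, blue points the 13 lower ones and grey points those not past the threshold. The dotted line is the median of all features at -0.04, and both directions occur in most rows.

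Arrays of DD pigs were dimmer, and this moved with the breed on some chips only. Brightness, taken per array as the 75th percentile of the processed signal in log2 units, averaged 7.53 (SD 0.54, n = 10) for DD and 8.22 (SD 0.38, n = 11) for LW arrays. Chip 1 had means of 7.95 for DD and 8.02 for LW, chip 2 had 7.55 and 8.31, and chip 3 had 7.09 and 8.36. The study describes a technical bias of the last of these chips. With the brightness in the model 7 of the 80 genes were past the threshold (2.19% of all features), and without chip 3 there were 2, ITGAD and VCL (1.51% of all features). Leaving out the array of LW pig 18 left 1 higher and 5 lower (6.34% of all features), against 9 and 13 with it (21%). Littermates entered the fit as a random block by sow, with an estimated correlation of -0.108. A negative correlation lowers the SE of a difference between litters, such as that of breed. The block therefore made the fit less strict here, with 21% of all features called. Without that block 14 of the 22 genes were still past the threshold (14.4% of all features). With 1 value per litter (litter means) 17 were (19.3% of all features). MYLK3, MYL6B, VAV1, ITGA4 and ACTN2 were lost in both, and ARHGAP25, ARHGAP11A and ICAM-2 without the block only. The part of brightness in the differences below was not tested beyond these fits. In whole blood, fewer cells of a type and less RNA per cell cannot be told apart.

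Of the 11 integrin alpha subunits, 8 were tested, 1 was higher and 2 were lower in DD pigs. ITGAD, the alpha subunit of a leukocyte integrin that pairs with the beta subunit ITGB2, had the largest difference of all 80 genes. Its normalised log2 signal had a lowest, median and highest value of 5.65, 6.36 and 7.16 in DD pigs and of 4.49, 5.37 and 6.26 in LW pigs. Most DD pigs lay beyond the LW range, with 8 of 10 above every LW pig and 7 of 11 LW pigs below every DD pig. The fitted difference was a log2 FC of 1.03 with an SE of 0.16 (adjusted p = 0.000328 in limma). It was 0.99, 1.02 and 1.10 on chips 1, 2 and 3. ITGAD stayed past the threshold in all 16 other settings and in all 21 fits without 1 animal. The value rests on a single probe, well above background on 9 arrays of each breed. The sequence of that probe is shown because the gene's whole result depends on it, and is given 5′ to 3′ as in the array's design.
ITGAD: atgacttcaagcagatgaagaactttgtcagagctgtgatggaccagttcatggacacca
ITGAM and ITGAX, close relatives of ITGAD within one gene family, were not found among the array's names, and whether this probe also pairs with their transcripts was not tested.

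The lower alpha subunits were ITGAV and ITGA4. ITGAV, which pairs with several beta subunits to bind matrix proteins such as vitronectin, had a log2 signal of 4.33, 4.88 and 5.06 (lowest, median and highest) in DD pigs and of 4.93, 5.23 and 6.07 in LW pigs. All but 3 DD pigs fell below every LW pig, and 9 of the 11 LW pigs exceeded every DD pig. This made a log2 FC of -0.45 (SE 0.12, adjusted p = 0.0162), with -0.22, -0.37 and -0.79 on the 3 chips. Of its 5 probes kept, 3 were past the threshold as single probes and 4 were below 0, against 21.7% of all 45228 probes past it. One that was past it, at -0.44 (adjusted p = 0.0222 over all probes), begins at base 2993 of its transcript and is shown as an example of a dim probe that passed.
ITGAV: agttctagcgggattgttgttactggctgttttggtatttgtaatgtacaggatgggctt
The signal of that probe was well above background in 2 DD pigs and 8 LW pigs only.

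ITGA4, whose dimers with ITGB1 and ITGB7 bind VCAM1 and MADCAM1 on endothelium, was read by 1 probe at 9.31, 9.74 and 10.06 in DD pigs and at 9.54, 10.12 and 10.94 in LW pigs. The ranges overlapped, although 6 LW pigs were above every DD pig. The log2 FC of -0.38 (SE 0.13, adjusted p = 0.0491) lay just inside the threshold, and it passed in 6 of the 21 fits without 1 animal. Without the sow block the adjusted p was 0.0683, and on litter means it was 0.0627. Of the alpha subunits not past the threshold, ITGAL, which forms the receptor LFA-1 for ICAM-1, had a log2 FC of -0.39 (SE 0.28, adjusted p = 0.321). On chip 2 the ITGAL difference was -1.21 and on chip 3 it was 0.32. ITGA5, ITGA1, ITGA2 and ITGA11 had log2 FCs from 0.00 to 0.26. The collagen receptor subunits ITGA2 and ITGA11 were not well above background in any DD pig. ITGA8, ITGA9 and ITGAE had no probe left after the filter.

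Beta subunits numbered 7, of which 6 were tested, 1 was higher and 1 was lower. ITGB8, which joins ITGAV in a receptor that activates latent TGF-beta, had a log2 signal of 10.90, 12.27 and 13.54 in DD pigs and of 9.77, 11.37 and 12.85 in LW pigs. Only 3 DD pigs exceeded all LW pigs. The fit gave a log2 FC of 0.92 (SE 0.26, adjusted p = 0.0227), but the chips gave 0.11, 1.07 and 1.62 in turn, and the fit gave 0.06 with the brightness of the arrays in the model. Its 3 probes did not read alike. The probe kept starts at base 1038 of the transcript and was well above background on all arrays, while the other probe to the same transcript, from base 2221, had a mean log2 signal of 3.81 in DD and 3.71 in LW pigs and was above background on 0 arrays, as was the third. Both are printed for that contrast.
ITGB8, base 1038: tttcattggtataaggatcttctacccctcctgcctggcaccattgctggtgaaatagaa
ITGB8, base 2221: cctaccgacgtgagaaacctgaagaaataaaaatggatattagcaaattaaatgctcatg
Which of them reports the ITGB8 transcript was not tested, and the ITGB8 difference is that of 1 probe.

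ITGB1, the partner of many alpha subunits and of ITGA4 on lymphocytes, was lower in DD pigs. The log2 signal, a mean of 6 probes, was 10.51, 10.78 and 11.30 in DD pigs and 10.52, 11.30 and 11.57 in LW pigs. The lowest LW pig was as low as the lowest DD pigs, but 6 LW pigs were above every DD pig. Between the breeds, the log2 FC was -0.40 (SE 0.12, adjusted p = 0.024), with -0.51, -0.40 and -0.29 on the chips. All 6 probes were below 0, from -0.61 to -0.22, and 3 passed on their own. The one with the smallest difference, at -0.22, starts at base 2459 and is printed as the end of that range.
ITGB1: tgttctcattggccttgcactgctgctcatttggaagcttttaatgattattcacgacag
The other probes gave differences from -0.24 to -0.61.

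**Figure D2:**
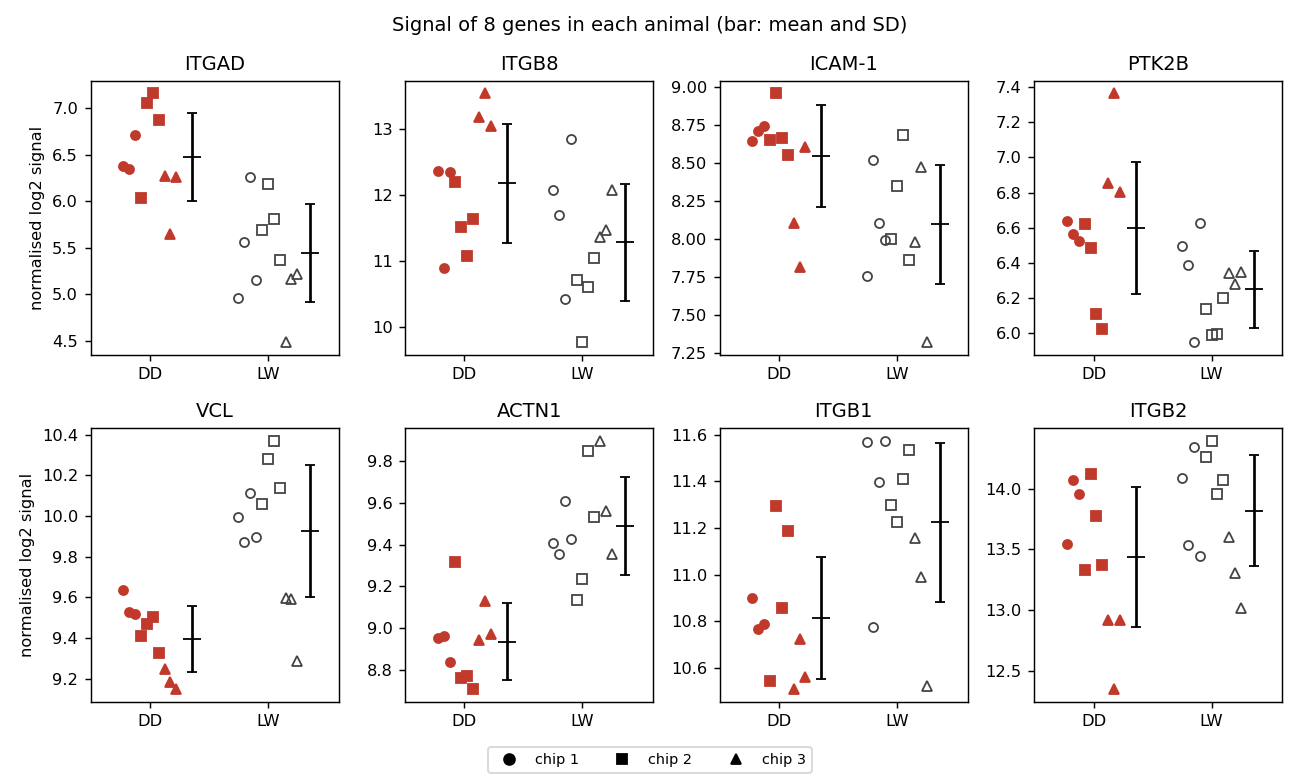
Normalised log2 signal of 8 genes in each pig (filled red, DD; open, LW), with the chip as the shape of the point and the mean and SD at the side. ITGAD has 8 DD pigs above all LW pigs, ACTN1 has 9 DD pigs below all LW pigs, and the ranges of ITGB8 and ITGB2 overlap widely.

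ITGB2, the shared beta subunit of LFA-1, Mac-1 and the ITGAD integrin, did not pass the threshold. Its log2 signal was 12.35, 13.46 and 14.12 in DD pigs and 13.02, 13.96 and 14.40 in LW pigs, with 3 pigs of each breed outside the range of the other. In the model, its log2 FC was -0.37 (SE 0.14, adjusted p = 0.0656), against 0.01 on chip 1, -0.52 on chip 2 and -0.58 on chip 3. It passed in 3 of the 16 other settings, and was at 0.04 with brightness in the model. ITGB7, the partner of ITGA4 in the gut homing receptor, had a log2 FC of -0.32 (SE 0.24, adjusted p = 0.35). ITGB5 was at 0.00 and ITGB4 at -0.06, and ITGB6 had no probe left. ITGB1BP2, named as a binding protein of ITGB1, had -0.30 (adjusted p = 0.134).

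No selectin passed the threshold in limma, with 3 of the 4 genes of this group tested and 1, SELPLG, past an unadjusted p of 0.05. SELP, the P-selectin that platelets and endothelium store in granules, had 0.05 (SE 0.25), with -0.53 on chip 1 and 0.96 on chip 3. SELPLG, a selectin ligand on leukocytes, had -0.40 (SE 0.17, adjusted p = 0.0967). With probes named through RefSeq or in other letter case added, SELPLG was at 0.13 (adjusted p = 0.437). The probes of SELE, the E-selectin of activated endothelium, were removed as dim.

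The immunoglobulin adhesion molecules, ligands of integrins and junction proteins, had 6 genes tested, 1 higher and 1 lower. ICAM-1, the ligand of LFA-1 that inflammatory signals induce, had a log2 signal of 7.82, 8.65 and 8.96 in DD pigs and of 7.32, 8.00 and 8.69 in LW pigs. There were 3 DD pigs above every LW pig and 2 LW pigs below every DD pig. The fitted difference was a log2 FC of 0.45 (SE 0.14, adjusted p = 0.0308 in limma), with 0.61, 0.48 and 0.25 on the chips. With brightness in the model it was 0.66 (adjusted p = 0.0485). ICAM-1 passed in 16 of the 21 fits without 1 animal and in 10 of 15 other settings, and not without chip 3 (adjusted p = 0.121). ICAM-2, a constitutive ligand of LFA-1 on platelets and endothelium, went the other way. Its log2 signal was 7.54, 8.64 and 9.41 in DD pigs and 7.87, 9.59 and 10.07 in LW pigs, with 7 LW pigs above every DD pig. The log2 FC was -0.65 (SE 0.22, adjusted p = 0.0443), with -0.77 and -1.03 on chips 1 and 2 and 0.00 on chip 3. It passed in 6 of the 21 fits without 1 animal and in 7 of 15 other settings, and not without the sow block (adjusted p = 0.0682). ICAM3, PECAM1, F11R and VCAM1 had log2 FCs from -0.19 to 0.25 and were not past the threshold. The 3 probes of ICAM3 gave 0.69, -0.21 and -0.25, and the brightest alone, at 0.69, was past it (adjusted p = 0.044). PECAM1, which acts at endothelial junctions and on leukocytes, was above 0 on all 4 of its probes (0.25, SE 0.11, adjusted p = 0.111). VCAM1 was not well above background in any DD pig.

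CD44, the hyaluronan receptor, CD47, the ligand of SIRPA, and CD99 were tested, and 0 of the 3 passed. Their log2 FCs were -0.24 (SE 0.10, adjusted p = 0.0771), 0.07 (SE 0.11) and -0.18 (SE 0.11). Of these, CD44 alone was past an unadjusted p of 0.05.

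Adaptors and kinases at the integrin tail had 8 of 9 genes tested, 1 higher and 1 lower, and the actin crosslinkers and ERM proteins had 4 tested, 0 higher and 2 lower. VCL, vinculin, which reinforces the link from talin to actin under load, had a log2 signal of 9.15, 9.44 and 9.63 in DD pigs and of 9.29, 9.99 and 10.37 in LW pigs. All but 3 LW pigs, those of chip 3, were above every DD pig. The fit gave a log2 FC of -0.52 (SE 0.09, adjusted p = 0.000502), with -0.41, -0.79 and -0.30 on the chips. All 5 probes passed on their own, from -0.63 to -0.35. VCL stayed past the threshold in all 16 other settings and all 21 fits without 1 animal. The probe with the smallest difference (-0.35, adjusted p = 0.0328 over all probes) is printed, since the direction was the same at both ends of the range.
VCL: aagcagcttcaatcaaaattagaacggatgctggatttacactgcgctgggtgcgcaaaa
The largest VCL difference came from a probe that begins at base 4977 of its transcript.

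ACTN1, the alpha-actinin that crosslinks actin in leukocytes and platelets, showed the same direction. Its log2 signal was 8.71, 8.95 and 9.31 in DD pigs and 9.13, 9.43 and 9.90 in LW pigs. The breeds met in only a few animals, with 9 of 10 DD pigs below every LW pig and 9 of 11 LW pigs above every DD pig. Between the breeds, the log2 FC was -0.56 (SE 0.10, adjusted p = 0.00151), and the chips gave -0.53, -0.55 and -0.59. It passed in 15 of the 16 other settings, missing the threshold without chip 3 (adjusted p = 0.0561). The probe from base 742 gave -0.43 (adjusted p = 0.0115 over all probes), and the one from base 3095 gave -0.69. The former, at the smaller difference, is printed.
ACTN1: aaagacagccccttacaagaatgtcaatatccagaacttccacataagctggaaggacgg
ACTN2, the muscle form, was also past the threshold (-0.38, SE 0.14, adjusted p = 0.0486), but it was well above background on at most 4 DD arrays and 9 LW arrays, and its 9 probes ranged from -1.33 to 0.39. The brightest ACTN2 probe alone gave 0.08. ACTN2 passed in 3 of the 21 fits without 1 animal, and neither without the sow block (adjusted p = 0.0638) nor on litter means (adjusted p = 0.0761).

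PTK2B, the focal adhesion kinase relative PYK2 of blood cells, was higher in DD pigs, with a log2 signal of 6.03, 6.59 and 7.36 against 5.95, 6.28 and 6.62 in LW pigs. There were 4 DD pigs above all LW pigs. In the model, its log2 FC was 0.36 (SE 0.11, adjusted p = 0.0282), with 0.21, 0.23 and 0.68 on the chips, and 0.14 with brightness in the model. Its 4 probes ranged from -0.10 to 0.91, and the 2 ends of that range are printed.
PTK2B, base 1683: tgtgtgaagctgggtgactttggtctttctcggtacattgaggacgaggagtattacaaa
PTK2B, base 2870: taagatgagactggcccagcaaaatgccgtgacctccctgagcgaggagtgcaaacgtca
The first of them was well above background in 2 DD pigs, the second in all pigs. TLN1, talin, which binds the integrin tail first, had -0.24 (SE 0.10, adjusted p = 0.0925) with 6 LW pigs above every DD pig. The scaffold PXN and the kinases PTK2 and ILK had log2 FCs from -0.02 to 0.07, and ILK ranged from -0.51 on chip 2 to 0.94 on chip 3. The kindlin FERMT2 was well above background in 2 DD pigs, at 7.10 and 6.87, and in 0 LW pigs, had medians of 3.85 in DD and 3.80 in LW pigs, and did not pass (adjusted p = 0.265). The kindlin FERMT1 had -0.14 (adjusted p = 0.671), and the talin TLN2 had no probe left. EZR and MSN, which tie CD44 and the selectin ligand to actin, had -0.24 (adjusted p = 0.278) and -0.10 (adjusted p = 0.584).

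**Figure D3:**
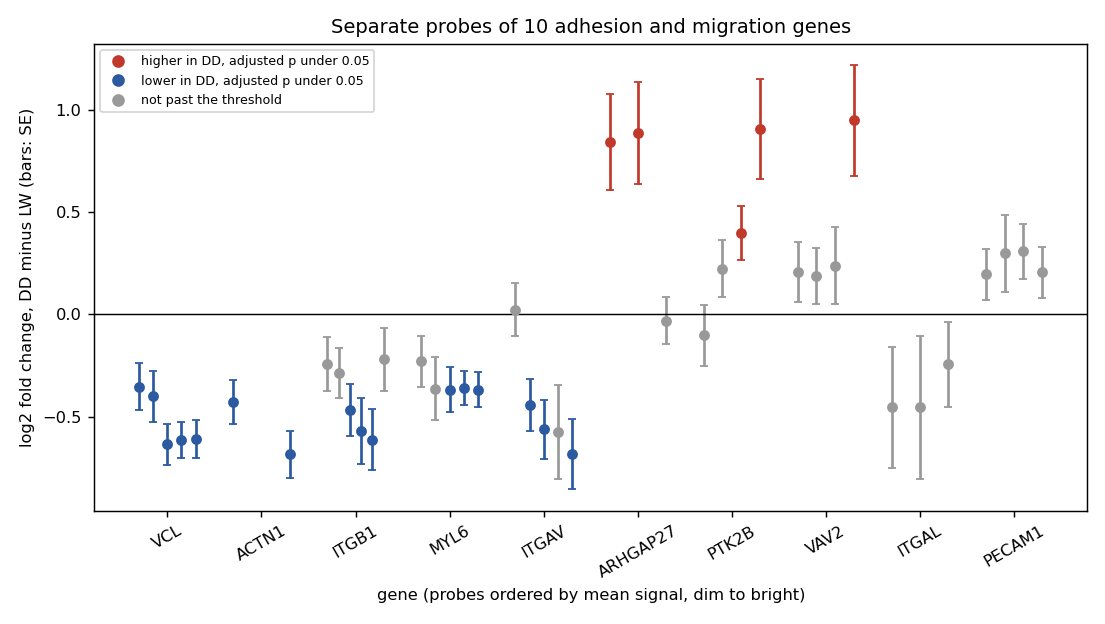
Log2 fold change (DD minus LW) with its SE for each kept probe of 10 genes, ordered within a gene from the lowest to the highest mean signal. All 5 probes of VCL and both of ACTN1 are below 0, whereas the probes of ARHGAP27, PTK2B and VAV2 spread from near 0 to about 0.9.

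Exchange factors load small GTPases with GTP, and 13 of 15 were tested, with 1 higher and 2 lower. VAV1, the form of blood cells that acts below antigen receptors and integrins, was lower in DD pigs. Its log2 signal was 11.90, 12.30 and 12.75 in DD pigs and 12.07, 12.64 and 12.89 in LW pigs, with 5 LW pigs above every DD pig. Its log2 FC came to -0.29 (SE 0.10, adjusted p = 0.0453), and it passed in 4 of the 21 fits without 1 animal. It did not pass without the sow block (adjusted p = 0.0642) or on litter means (adjusted p = 0.0767). VAV2, the more widely expressed form, was higher, with 5.66, 6.25 and 7.08 in DD pigs against 5.51, 5.86 and 6.35 in LW pigs. Only 2 DD pigs lay above the LW range. The fitted difference was a log2 FC of 0.40 (SE 0.11, adjusted p = 0.0229), and VAV3 had 0.09 (adjusted p = 0.607).

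The VAV2 call came mainly from 1 of its 4 probes, at 0.95 (adjusted p = 0.0218 over all probes), while the others were at 0.19, 0.21 and 0.24. The probe at 0.95 and the one at 0.24 overlap by 28 bases, in capitals here, which is why both are shown.
VAV2, probe at 0.24: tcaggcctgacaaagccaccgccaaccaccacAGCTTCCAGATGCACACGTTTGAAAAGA
VAV2, probe at 0.95: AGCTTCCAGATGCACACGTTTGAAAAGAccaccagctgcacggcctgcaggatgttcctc
One gene thus gave unlike differences from probes that share part of their target. ARHGEF10 was lower, with 4.69, 5.32 and 5.88 in DD pigs against 5.24, 5.89 and 6.38 in LW pigs. There were 6 LW pigs above all DD pigs. The log2 FC was -0.52 (SE 0.13, adjusted p = 0.0145), with -0.32, -0.40 and -0.92 on the chips. ARHGEF11, named after its values were seen, had 0.29 (adjusted p = 0.0721). A further 7 exchange factors (ARHGEF2, ARHGEF6, ARHGEF10L, ARHGEF12, ARHGEF17, ARHGEF18 and ARHGEF40) had log2 FCs from -0.32 to 0.06 and did not pass. ARHGEF4 and ARHGEF37 had no probe left.

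Activating proteins turn small GTPases off, and 14 of 17 were tested, with 1 higher and 3 lower. ARHGAP27 was higher, at 9.48, 10.22 and 11.09 in DD pigs against 9.04, 9.60 and 10.44 in LW pigs. There were 3 DD pigs above the LW range and 4 LW pigs below the DD range. The fit gave a log2 FC of 0.57 (SE 0.15, adjusted p = 0.0152), with 0.16, 0.43 and 1.20 on the chips. A pair of its probes carry the same sequence and gave 0.84 and 0.89, while the third and brightest gave -0.03. The fitted value is the plain mean of these probes, so the repeated sequence weighs more in it than the third probe. The same-sequence pair differed from array to array with an SD of 0.36, which holds the error of both spots. For the identical pair of ARHGAP30 that SD was 0.10, and for that of ITGAL it was 0.31.

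The lower members of this family were ARHGAP11A, ARHGAP12 and ARHGAP25. ARHGAP11A, which acts in dividing cells, had a log2 signal of 5.92, 6.55 and 7.54 in DD pigs and of 6.25, 7.32 and 8.01 in LW pigs. The breeds overlapped apart from 3 pigs on each side. Between the breeds, the log2 FC was -0.61 (SE 0.21, adjusted p = 0.0458), but the chips in turn gave -0.01, -0.51 and -1.44. It passed in 7 of the 21 fits without 1 animal and in 6 of the 16 other settings, and not without the sow block (adjusted p = 0.0658). ARHGAP12 had -0.40 (SE 0.12, adjusted p = 0.0251), with 8 DD pigs below every LW pig and 1 DD pig above all of them. ARHGAP25, an activating protein of Rac in leukocytes, had -0.34 (SE 0.12, adjusted p = 0.0495), and passed in 7 of the 21 fits without 1 animal. It lay outside the rule for named genes and was added after its values were seen, as was MYLK3 below. ARHGAP1 had 0.81 (SE 0.29, adjusted p = 0.051), with -0.03 on chip 1 and 1.59 on chip 3, and is the gene just outside the threshold, also named after its values were seen. The remaining 9 (ARHGAP4, ARHGAP6, ARHGAP15, ARHGAP17, ARHGAP19, ARHGAP21, ARHGAP24, ARHGAP30 and ARHGAP31) had log2 FCs from -0.27 to 0.16 and did not pass. ARHGAP5, ARHGAP22 and ARHGAP23 had no probe left.

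Myosin light chains and their kinases move the cell body. All 9 light chains were tested, with 1 higher and 1 lower, and so were the 4 kinases and MYLIP, a ubiquitin ligase, with 2 higher and 0 lower. MYL6, the essential light chain of nonmuscle myosin, had a log2 signal of 12.77, 13.15 and 13.34 in DD pigs and of 12.84, 13.54 and 13.71 in LW pigs. Most LW pigs, 9 of 11, were above every DD pig. In the model, its log2 FC was -0.34 (SE 0.09, adjusted p = 0.0188). All 5 of its probes were below 0, from -0.37 to -0.23. With the arrays scaled to their 75th percentile instead of quantile normalised, the difference was -0.09.

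MYL6B, a close relative of MYL6, was higher at 7.05, 7.58 and 8.40 in DD pigs against 6.92, 7.18 and 7.65 in LW pigs. In each breed, 3 pigs lay outside the range of the other. Its log2 FC came to 0.41 (SE 0.13, adjusted p = 0.0347), with an adjusted p of 0.0501 without the sow block and 0.0671 on litter means. MYL6 and MYL6B are close copies in sequence, and whether a probe of one pairs with the transcript of the other was not tested. The regulatory light chains MYL9, MYL12A and MYL12B had log2 FCs of -0.21, -0.24 and -0.04 and did not pass. MYL9, the form of platelets and smooth muscle, had -1.10 on chip 1, -0.61 on chip 2 and 1.34 on chip 3, so the fitted value describes none of the chips.

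MYLK2 and MYLK3, the kinases of skeletal and heart muscle myosin light chain, were higher in DD pigs. MYLK2 had a log2 signal of 6.57, 7.23 and 8.30 in DD pigs and of 6.24, 6.66 and 7.85 in LW pigs, with 5 LW pigs below every DD pig. The log2 FC was 0.62 (SE 0.17, adjusted p = 0.0181), with 0.09, 0.60 and 1.25 on the chips, and 0.07 with brightness in the model. MYLK3 had 0.70 (SE 0.24, adjusted p = 0.0415), with -0.01 on chip 1 and 1.58 on chip 3, and passed in 8 of the 21 fits without 1 animal. Each was read by 1 probe. MYLK, the form of smooth muscle and nonmuscle cells, had 0.25 (adjusted p = 0.432). MYLK4 and MYLIP were at 0.00 and 0.01. The muscle light chains MYL1, MYL2, MYL7 and MYLPF had log2 FCs from -0.22 to 0.18 and did not pass.

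**Figure D4:**
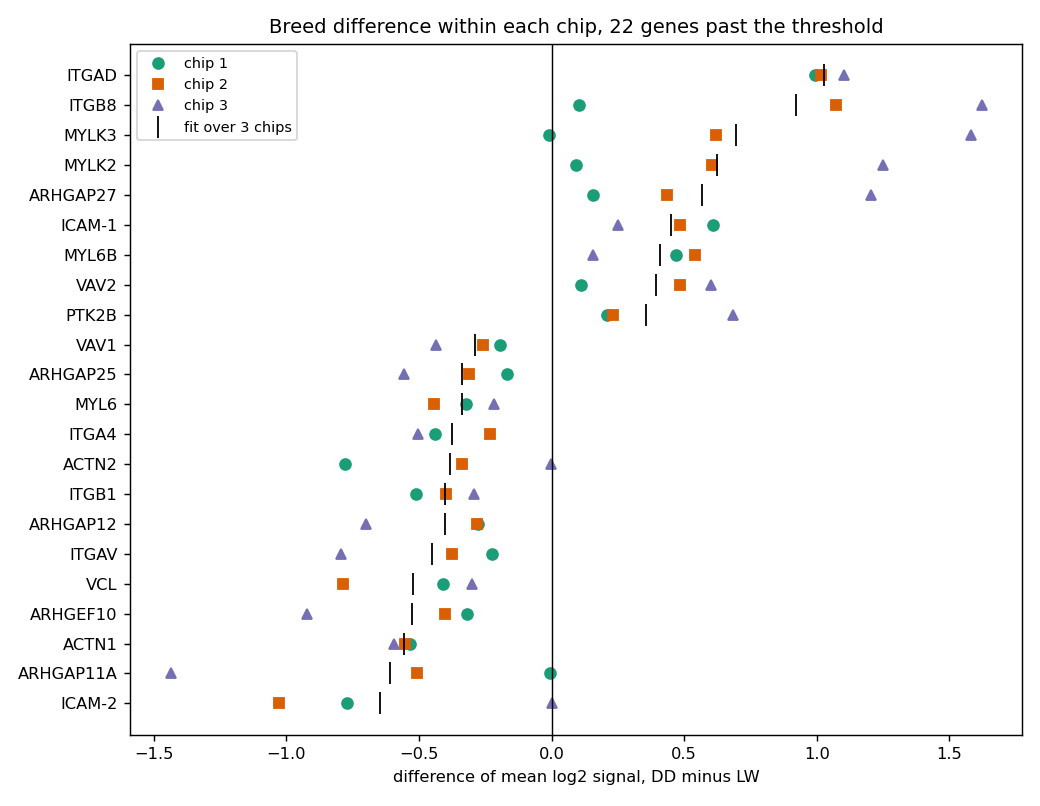
Difference of the mean log2 signal (DD minus LW) on chips 1, 2 and 3 for the 22 genes past the threshold, with the fit over all chips as a black bar. ITGAD and ACTN1 lie close together on the 3 chips, whereas ITGB8, MYLK2, MYLK3 and ARHGAP27 lie between -0.01 and 0.16 on chip 1 and between 1.20 and 1.62 on chip 3.

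Within the chips, 20 of the 22 differences had the same sign on all 3. Chip 3 gave the largest difference in 7 of the 9 higher genes and in 8 of the 13 lower genes. ITGB8, MYLK2, ARHGAP27 and PTK2B were among these higher genes. The brightness gap between the breeds was also widest on chip 3, but it belongs to the chip and is the same for every gene. ITGAD, from 0.99 to 1.10, and ACTN1, from -0.53 to -0.59, were also furthest from 0 on chip 3, and ITGB1 was furthest from 0 on chip 1.

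Other genes of the same pathway that the symbols did not take in were called in both directions too, more often lower. Of 75 listed, 52 were tested, 2 were higher and 10 were lower in DD pigs (23.1%, against 21% of all features). Of all features, 11.4% were higher and 9.57% lower. The median difference over the 52 was -0.14, and 39 were below 0, against -0.04 and 19505 of 35578 for all features. DOCK1, an exchange factor of Rac that acts with ELMO1 and CRK below integrins, was well above background in 0 DD pigs and 8 LW pigs. Its mean log2 signal was 3.82 in DD and 5.06 in LW pigs, so it passed the filter on dim probes through its LW signal. With each DD array taken at no less than its dimmest probe above background, it was 1.997-fold lower in DD pigs. That floor rests on the scanner's flag, read on DD arrays that were dimmer as a whole, and is no strict bound. The adjusted p of 2.07e-05 in limma belongs to the fit without that floor (log2 FC -1.26). SKAP2, which links integrin activation to actin in myeloid cells, had -0.82 (SE 0.18, adjusted p = 0.00499). CXCR4, the receptor for CXCL12 that guides leukocytes, had -0.75 (SE 0.21, adjusted p = 0.0191). PIK3CG, the kinase below chemokine receptors, had -0.56 (adjusted p = 0.0115), and ZYX, zyxin of focal adhesions, had -0.44 (adjusted p = 0.0326). ARPC3, LCP1, WIPF1, CRKL and PIK3R5 were lower by 0.30 to 0.36 in the fit. MADCAM1, the endothelial ligand of the ITGA4 and ITGB7 dimer, was higher (0.68, adjusted p = 0.0124 in limma), with 0.17, 0.74 and 1.17 on chips 1, 2 and 3. So was the junction protein OCLN (0.49, adjusted p = 0.0165), with 0.19, 0.45 and 0.87.

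Symbols in other spelling or accessions that the RefSeq table of the Sscrofa11.1 assembly names gave 16 further genes of these families. Of these, 0 were higher and 2 lower, while 20.8% of all features were called with these names. The count is no result about these genes as a set. RAC2, the Rac form of blood cells, had -0.52 (SE 0.14, adjusted p = 0.0158). JAM2 also passed (adjusted p = 0.0346), but was well above background in 0 DD pigs and 1 LW pig. Its mean log2 signal was 3.78 in DD and 4.26 in LW pigs, so it passed the filter on dim probes through its LW signal. RAC1 had 0.12, ITGA6 -0.08 and ACTN4 0.16, and none of them passed.

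Markers of blood cell types were read beside these genes, against 21% of all features past the same threshold. Past it were 16.7% of platelet, 37.5% of T cell, 33.3% of erythroid and 20% of monocyte markers, and 0% in each other list. The lists are short, and none was tested as a set. Of 6 platelet markers tested, 1 was lower in DD pigs, PPBP, a platelet chemokine, at -0.94 (SE 0.32), and 5 were below 0. The chips were not alike, as PPBP was at -1.69, -1.05 and 0.04 on chips 1, 2 and 3. On chip 3 all 6 markers were above 0, from 0.04 to 0.95. The mean log2 signal of the platelet list ran from 8.06 to 9.79 in DD pigs and from 8.70 to 9.86 in LW pigs. VCL, ACTN1, SELP, MYL9 and ICAM-2 are also expressed by platelets. Of 8 T cell markers, 3 were lower, CD3D (-0.58), CD3G (-0.64) and CD247 (-0.63), and all 8 were below 0, with a list mean from 8.95 to 10.12 in DD pigs and from 9.37 to 10.33 in LW pigs. ITGA4, ITGB1, VAV1 and ARHGAP25 are expressed by T cells. Of 6 erythroid markers, 2 were higher in DD pigs, EPB42 (1.06) and CA1 (1.02), with a list mean from 11.37 to 12.68 against 11.06 to 12.39. None of 6 neutrophil, 4 B cell and 6 NK and cytotoxic markers passed in limma, with or without adjustment, and 1 of 5 monocyte markers did, CD163 at -0.72. For endothelium, which expresses SELE, VCAM1 and MADCAM1, 0 of 4 markers passed in limma (1 at an unadjusted p of 0.05) and 2 of the 5 on the array were well above background nowhere. The part of any of these cell types in the differences of the adhesion genes was not tested.

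**Figure D5:**
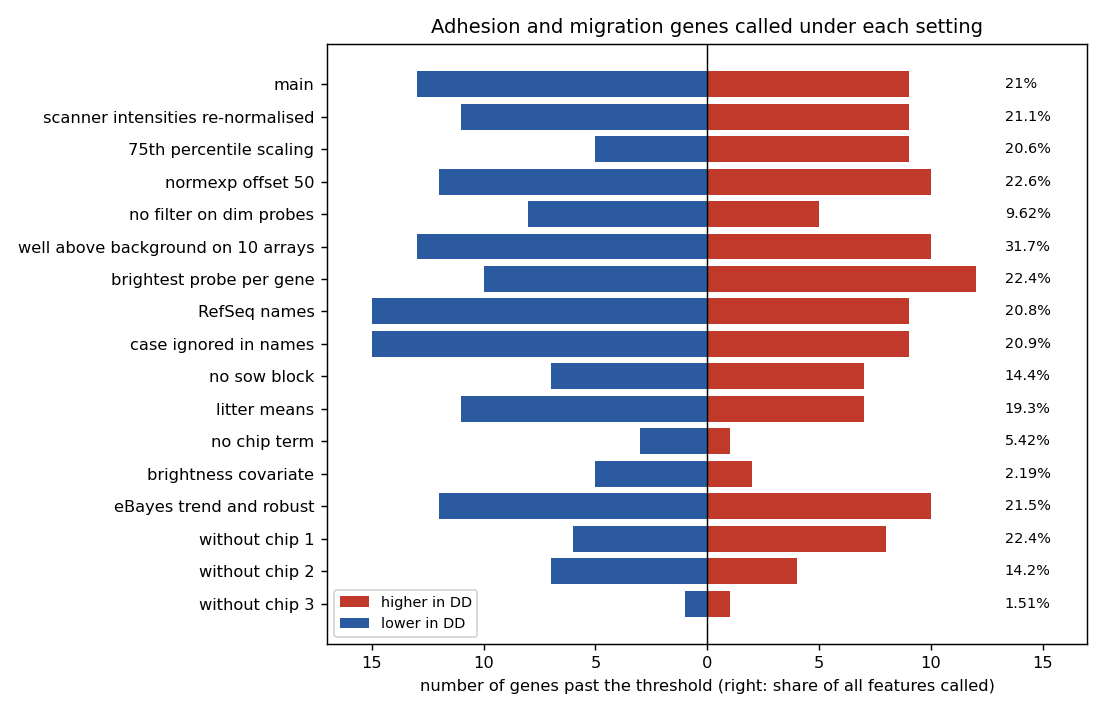
Number of adhesion and migration genes higher (red) and lower (blue) in DD pigs under each way of processing, with the share of all features called at the right. The counts go from 9 and 13 in the fit reported to 1 and 1 without chip 3, where the share of all features called also goes from 21% to 1.51%.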

How the data were processed

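The authors deposited, for each of 21 arrays, scanner intensity values and flags written by Agilent Feature Extraction 10.7.3.1, and 1 joint table in log2 units, which they made with normexp, log2 scaling and quantile normalisation once outlying arrays were out. That table was used here. The per-animal litter and chip came from the study's supplementary information. Controls and the 25% of probes with the lowest mean were removed, and the remaining probes of a symbol were averaged. Breed and chip were fixed effects in limma 3.58.1 (R 4.3.3, statmod 1.5.0), the sow was a random block (duplicateCorrelation, consensus correlation -0.108) and p-values were Benjamini-Hochberg adjusted over 35578 features, with a threshold of 0.05. Array number limits the precision, and no depth applies.

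Genes named are up to 10 highest and 10 lowest log2 FCs past the threshold with 1 sign on all 3 chips (8 higher and 10 lower met this), plus core adhesion genes. The members and all lists were chosen with earlier results of these data known. On simulated data of this layout, 77 of 100 genes changed by 1 on the log2 scale and 26 of 100 changed by 0.5 were recovered. There only 200 of 35578 features were changed, and the noise was drawn separately for each array without litter correlation. The recovery where 21% of all features are called, as here, was not simulated. A probe was well above background by the scanner's flag. Platelet, erythroid, neutrophil, monocyte, T cell, B cell, NK and endothelial marker lists were described. Results of 2 tested genes are not reported here. Probes were not aligned, since no genome sequence was used.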

Additional observations from a re-analysis of the deposited data

Results flagged for a closer look

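Among the 42 named genes, 2 had a DD pig far from the other 9, judged by Dixon's test on the gap to the next pig as a share of the range. The 11 LW pigs were not examined, since the test was used for groups of up to 10. ITGAV had DD pig 23 at a log2 signal of 4.33, below the next at 4.74 (gap over range 0.563). ACTN2 had DD pig 21 at 4.71, above the next at 4.29 (gap over range 0.558). Chance flags about 1 in 20 groups. ITGAV was past the threshold in all 21 fits without 1 animal, and ACTN2 in 3 of them.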

How the results depend on the processing

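Breed differences of ITGAD and VCL were past the threshold in limma under all 16 other settings and all 21 fits without 1 animal, and that of ACTN1 under 15 and 21. The sign of a called difference changed for 2 genes, both with the brightest probe of a gene in place of the mean of its probes, where ARHGAP27 was at -0.030 and ACTN2 at 0.079. The counts of adhesion and migration genes, 9 higher and 13 lower, depended on the setting. So did the share of all features called, which was 21% in the fit reported. With scaling to the 75th percentile 5 were lower (20.6% of all features called). Of the calls among these genes, 64.3% were higher against 40.9%, while the median of all features moved from -0.04 to 0.06. With no filter on dim probes there were 5 higher and 8 lower (9.62% of all features, and 7 pathway companions called, against 12). With no sow block 7 were lower (14.4% of all features called). With no chip term there were 1 higher and 3 lower (5.42% of all features, 4 companions). Brightness as a covariate gave 2 and 5 (2.19% of all features, 3 companions). Without chip 1, 6 were lower (22.4% of all features), and without chip 2 there were 4 higher and 7 lower (14.2%). Without chip 3 there were 1 and 1 (1.51% of all features, 1 companion). Fewer arrays entered each of these fits. Over the fits without 1 animal, the higher genes numbered 1 to 12, the lower genes 5 to 16 and the companions 5 to 16. The share of all features called ran from 6.34% to 33% over the same fits. The lowest counts came without LW pig 18 (1 higher, 5 lower, 5 companions, 6.34% of all features). The lower genes numbered 7 or 8 without DD pig 1, 8, 10, 19, 21 or 23 or LW pig 2, 5, 12 or 22, and the higher genes 4 without DD pig 21 and 5 without LW pig 5. Letter case ignored in names, a choice made after seeing the data, gave 9 and 15 (20.9% of all features). For each other change of the counts the cause was not tested. No paired analysis was possible because the breeds share no animal numbers.

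Signal over background limits the dim genes, as 11 of the 91 had no probe kept, 9 of the 80 tested were above background in 1 breed at most, and whether a probe binds only its own gene was not tested.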
